A study of Mus musculus with 3 samples.

Results

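Voltage-gated ion channel genes were examined in nuclei of mouse sympathetic ganglia. They were chosen by gene symbol: potassium channel genes beginning with Kcn, sodium channel genes Scn with an a or b ending, calcium channel genes of the Cacna1, Cacna2d, Cacnb and Cacng groups, and the numbered Hcn genes. The rule found 138 of the 32285 listed genes, in 28 families. Not all of them open with voltage: 55 encode voltage-gated pores, 37 auxiliary or regulatory proteins, 10 silent subunits that act only together with another pore, and 36 other potassium pores, such as inward rectifiers, background channels and channels opened by calcium or sodium.

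Sodium channels carry the upstroke of the action potential, potassium channels repolarize the membrane and set how often a cell fires, and calcium channels couple depolarization to transmitter release and to transcription. In sympathetic neurons the M-current, a slow potassium current through Kcnq pores that acetylcholine can shut through muscarinic receptors, is a textbook brake on firing, and N-type calcium channels (Cacna1b) are known for triggering noradrenaline release. Hcn channels open on hyperpolarization and pass an inward cation current.

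The nuclei came from sympathetic ganglia, abbreviated SCG, STG, T2-T4 and CG in the labels, pooled from 30 mice and captured with 10x Genomics 3' chemistry. The mice were treated with RHS and with MC903 (calcipotriol, a vitamin D analogue applied to raise skin inflammation), according to the library's description; its preparation text names MC903 alone, its title names skin, and the labels do not expand RHS. It was a single library with no untreated partner, so no effect of RHS or MC903 on these genes can be read from it. The series also held CD45-selected skin cells of MC903-treated mice without and with RHS, whose values are given only in the closing section.

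The deposited ganglia matrix held 11101393 UMIs (unique molecules) in 4706 barcodes, of which 4507 were kept at a median of 1542 UMIs. Nuclei were clustered with the 138 genes left out of the variable genes, and clusters were named from marker lists, so each name below means "like" that type. The noradrenergic neuron class held 109 nuclei and 1580920 UMIs, glia 239 nuclei and 407227 UMIs, muscle 140 and 300999, endothelium 591 and 1124681, and adipocytes 851 and 2201813. The library's cell type label reads neuron, while most kept nuclei fell in other classes. Neuron nuclei were the deepest, at a median of 10723 UMIs against 1308 in glia, and their 10 deepest nuclei held 26.2% of the class's UMIs. All 15 noradrenergic markers were detected in the neuron class. The sensory markers Calca, Tac1, Mrgprd and Pou4f1, the central markers Slc17a7, Slc17a6 and Gad1, and the glial markers Sox10, Erbb3 and Fabp7 were at 0 there. Levels are CPM, the UMIs of a gene scaled to a common class total, with exact 95% intervals that cover counting error only. The nuclei of 1 library are not replicates, so no test between types was run.

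Transcripts of the 138 genes made up 4.50% of all UMIs in neuron nuclei, 45007 CPM (95% interval 44677 to 45339). They reached 6555 CPM in muscle, 6046 in glia, 2436 in endothelium and 1461 in adipocytes. Neuron nuclei thus stood 6.87-fold above muscle, the next type. The unnamed cluster 13, with 127 nuclei and 14 noradrenergic markers present, was not part of the neuron class. Its sum was 9094 CPM, 0.909% of its UMIs. A haemoglobin rule added after seeing the data left that cluster unnamed. Kcnip4 alone gave 38308 of the 71153 neuron UMIs of these genes, and without it the sums were 20776 CPM in neuron, 6206 in muscle and 5420 in glia. In single nuclei the share of UMIs from these genes had a median of 4.05% in neurons, between a lowest value of 1.31% and a highest of 9.85%. The medians were 0.631% in glia, 0.546% in muscle, 0.235% in endothelium and 0.135% in adipocytes. The highest glial nucleus, at 2.15%, overlapped the lowest neurons. A neuron nucleus held UMIs of 31 of the genes at the median, with a range of 10 to 58.

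**Figure D1:**
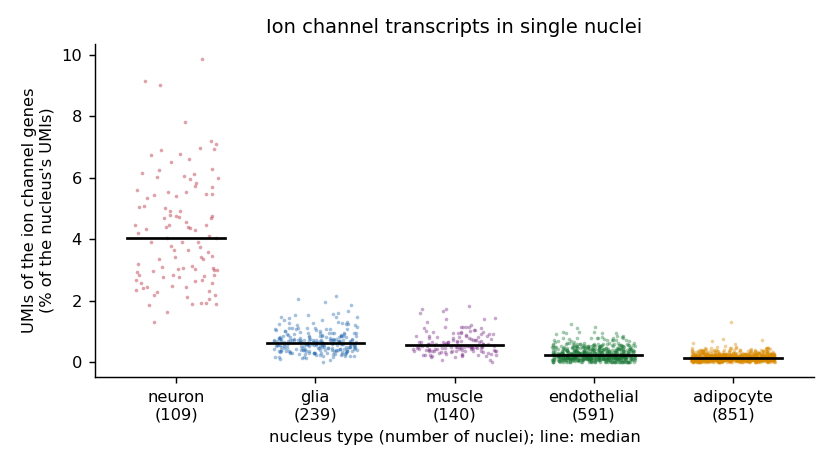
UMIs of the 138 ion channel genes as a percent of all UMIs of a nucleus (y axis) in the 5 nucleus types (x axis, with the number of nuclei). Each point is a nucleus and the line is the median; neuron nuclei spread from 1.31% to 9.85%, and the medians of the other types lie at or under 0.631%.

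A gene was called for a type when its level there was at least 2-fold over that in the second-highest type and the interval of the ratio lay above 1, among genes with at least 20 UMIs over the 5 types. Of the 138 genes, 13 had no UMI in the 5 types, 48 had 1 to 19 and 77 were compared. Neuron nuclei were called for 33 of the 77 genes, 42.9%, against 7.26% of all 13270 genes compared. Glia were called for 9 genes (background 2.92%), muscle for 5 (3.25%), endothelium for 4 (6.47%) and adipocytes for 3 (4.41%), and 23 were called for none. The endothelial and adipocyte counts are near their backgrounds. The median ratio of the highest to the second type was 4.41 over the 77 genes and 1.42 over all genes compared.

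The neuron-called genes were long, with a median span of 194 kb against 28.3 kb for all genes compared (gene spans from GENCODE M21, build GRCm38, matched by identifier). Long genes were called for neurons more often in general. Among genes of at least 100 kb, 28 of 39 ion channel genes (71.8%) were called for neurons, against 19.6% of all 2272 genes of that length. Under 100 kb the figures were 5 of 38 (13.2%) against 4.70%. Span and neuron calls thus moved together, and the part of span in the 33 calls was not tested further.

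**Figure D2:**
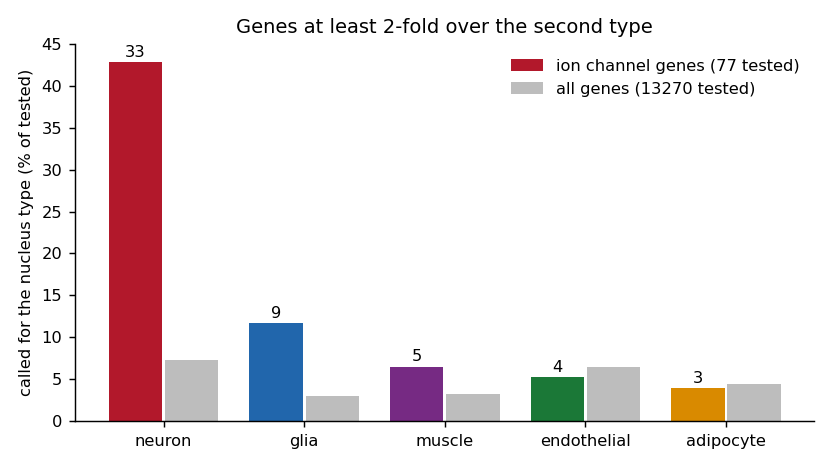
Share of compared genes called for each nucleus type, in percent (y axis), for the ion channel genes (coloured bars, with their number) and for all genes (grey bars). The neuron bar stands at 42.9% against 7.26%, while the endothelial and adipocyte bars lie near the grey ones.

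Neuron calls among potassium channel genes and their partners are described first. Kcnip4, which encodes a calcium-binding partner of Kv4 channels, reached 24231 CPM in neurons, 626 in glia, 417 in endothelium, 349 in muscle and 334 in adipocytes, a ratio of 38.7 (34.2 to 43.9) over glia. Its pore partner Kcnd2 (Kv4.2, the A-type current) had 1401 CPM in neurons, 133 in glia and at most 30.4 in the other 3 types, 10.6-fold (8.07 to 14.1). Dpp6, the transmembrane partner of the same channels, was also called for neurons (1693 CPM, 34.5-fold over glia). The erg-group pore Kcnh7 showed the largest ratio among neuron-called genes: 1571 CPM in neurons against 36.8 in glia, 36.5 in muscle, 33.8 in endothelium and 20.4 in adipocytes, 42.6-fold (25.8 to 76.3). The eag-group pores Kcnh5 and Kcnh1 were called at 15.3-fold over glia and 12.3-fold over endothelium. The delayed rectifier Kcnb2 (Kv2.2) stood at 707 CPM in neurons and 29.5 in glia, 24.0-fold (13.7 to 46.6). Kcnj3, a pore of the G protein-gated inward rectifier, had 641 CPM in neurons and 29.9 in muscle, 21.5-fold (11.3 to 47.0). The background channel Kcnk10 was called at 237 CPM, 12.7-fold over endothelium, and the sodium-activated channel Kcnt1 at 170.2 CPM, 6.30-fold over glia.

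The M-current family Kcnq summed to 7900 CPM in neurons, 2153 in muscle and 1142 in glia. Kcnq3 carried 3039 CPM in neurons, 162 in glia, 72.0 in endothelium, 59.8 in muscle and 53.1 in adipocytes, 18.8-fold over glia (14.7 to 24.3). Kcnq5 was high in more than one type: 4726 CPM in neurons, 2033 in muscle, 933 in glia, 171 in endothelium and 75.4 in adipocytes. Its ratio over muscle was 2.32 (2.14 to 2.53), and this call was lost when each nucleus was thinned to 900 UMIs (1.84-fold) or when unnamed neuronal clusters were added to the class (1.79-fold). Per 100 kb of gene span, the neuron level was 2134 CPM for Kcnip4, 1012 for Kcnq3, 839 for Kcnq5, 395 for Kcnj3, 373 for Cacna1b and 121 for Cacna2d3. Of a list of 8 compared genes that control the M-current, neurons were called for 2 (background 7.26%), the receptor genes Chrm1 and Bdkrb2. The phospholipase C genes Plcb4 and Plcb1 were called for no type. Backgrounds here and below are over genes of any length, and the spans of partner genes were not compared.

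Of 8 compared sodium channel pores, 5 were called for neurons (background 7.26%), Scn7a for glia and Scn4a for muscle. The summed Scn alpha level was 1769 CPM in neurons and 884 in glia, and Scn7a gave 281 of the 360 glial UMIs. The neuron calls were Scn1a, Scn2a, Scn3a, Scn8a and Scn9a. Scn9a (Nav1.7) had 497 CPM in neurons, 71.2 in glia, 18.7 in endothelium and about 10 CPM in muscle (9.97) and adipocytes (9.99), 6.98-fold over glia (4.82 to 10.5). Scn3a (Nav1.3) had 378 CPM in neurons and 41.7 in glia, 9.06-fold (5.61 to 15.7), and Scn1a (Nav1.1) 178 and 12.3, 14.5-fold (6.13 to 44.9). The pain-fibre channels Scn10a and Scn11a had 1 and 3 UMIs over the 5 types. The beta subunits were called for no type; Scn3b had 61.4 CPM there and 41.7 in glia. Of 8 compared partners of sodium channels, neurons were called for 6 (background 7.26%), among them Fgf14 (12010.1 CPM, 10.5-fold over adipocytes). Muscle was called for Fgf13 (2897 CPM, 15.1-fold over glia), while the anchoring protein gene Ank3 was called for none.

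Of 6 compared calcium channel pores, neurons were called for 5 (background 7.26%), which covered the N-, P/Q-, R- and L-type currents, and muscle for Cacna1s. Cacna1b (N-type) had 594 CPM in neurons, 24.6 in glia, 19.9 in muscle, 18.7 in endothelium and 8.63 in adipocytes, 24.2-fold (13.1 to 50.6). Cacna1a (P/Q-type) had 609.8 CPM in neurons and 88.0 in endothelium, 6.93-fold (5.63 to 8.61). The L-type genes Cacna1d and Cacna1c were called at smaller ratios, 3.57 and 3.00 over glia, and the R-type gene Cacna1e at 4.08 over adipocytes. Among auxiliary subunits Cacna2d3 had 987 CPM in neurons and 51.6 in glia, 19.1-fold (12.5 to 31.0). Cacna2d1 went the other way, with 1389 CPM in muscle and 891 in neurons, 1.56-fold, and was not called. Cacng3 and Cacng2, whose proteins are known as partners of AMPA receptors, were called at 16.2-fold and 9.66-fold on 63 and 75 neuronal UMIs. Of 9 compared calcium channel partners, neurons were called for 6 (background 7.26%), Rims2 among them (922 CPM, 17.1-fold over glia). Muscle was called for 2 (background 3.25%), Ryr1 and Stac3. The sodium leak channel complex was called for neurons in 3 of 4 genes (background 7.26%): Nalcn, Unc79 and Fam155a. Of 32 compared genes of other ion channels, neurons were called for 4 (background 7.26%) and muscle for 3 (3.25%). Endothelium was called for 3 of them (6.47%) and glia for 1 (2.92%), with a median ratio of 1.71.

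**Figure D3:**
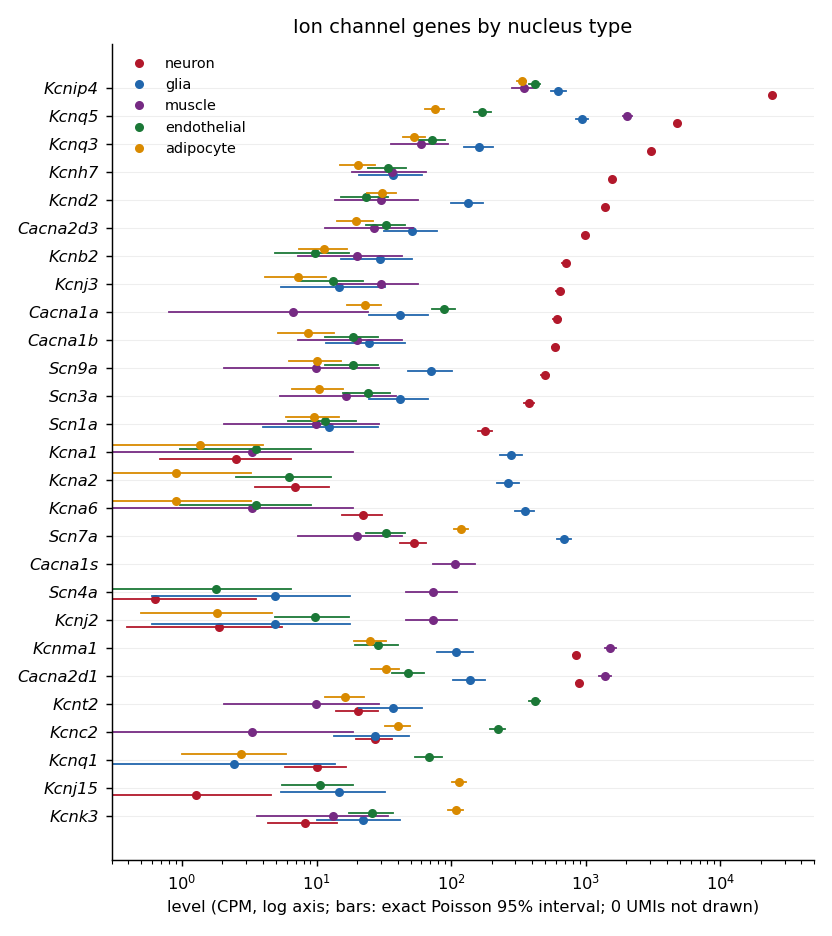
Level of 27 ion channel genes (y axis) in the 5 nucleus types, in CPM on a log axis (x axis), with exact Poisson 95% intervals; values of 0 are not drawn. The upper genes are highest in neurons, the Kcna genes and Scn7a in glia, and Cacna1s, Scn4a and Kcnj2 in muscle.

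Glia carried the Kv1 pores that were compared. The Kcna family summed to 901 CPM in glia, 35.4 in neurons, 17.8 in endothelium, 16.6 in muscle and 4.09 in adipocytes. Each of its 3 compared members was called for glia (background 2.92%). Kcna1 (Kv1.1) had 279.9 CPM in glia and 2.53 in neurons, and its second-highest type was endothelium at 3.56, a ratio of 78.7 (29.9 to 294). Kcna2 (Kv1.2) had 265 CPM in glia and 6.96 in neurons, 38.1-fold (20.5 to 78.6). Kcna6 had 351 CPM in glia and 22.1 in neurons, 15.9-fold (10.9 to 23.7). Of 7 compared partners of Kv channels, glia were called for 1 (background 2.92%), Lgi1, a secreted partner of Kv1 complexes, at 106 CPM. Neurons were called for 2 (background 7.26%), Dpp6 and Cntnap2, the latter a partner of Kv1 channels at 8382 CPM in neurons, 39.7-fold over glia. Kv1 channels are best known from the axons of neurons.

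Hcn2 and Hcn3 were low in every type, with 17.7 and 13.9 CPM in neurons, and were not called. Glia were also called for Scn7a. Scn7a (Nax, a sodium-sensing channel known from Schwann cells) had 690.0 CPM in glia, 119 in adipocytes and 52.5 in neurons, 5.82-fold over adipocytes (4.90 to 6.92). Outside the 5 types, Scn7a reached 592, 565 and 437 CPM in the fibroblast clusters 4, 11 and 9. The elk-group pore Kcnh8 was called for glia at 307 CPM against 134 in neurons, 2.29-fold (1.82 to 2.87). Kcnk13 and Kcnip1 were called at 15.8-fold and 17.3-fold. Kcnrg passed the threshold by the least, at 2.01-fold on 16 glial UMIs, and was not called in 8 of 13 alternative settings.

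Muscle nuclei carried genes of excitation-contraction coupling in skeletal muscle. Cacna1s (Cav1.1, the voltage sensor of that coupling) had 32 UMIs in muscle, 106 CPM, and 0 UMIs in each of the other 4 types. At a floor of 3 counts per type this is at least 56.0-fold higher than in neurons and at least 14.4-fold higher than in glia, the shallower class. Its partner Ryr1, the calcium release channel, had 1183 CPM in muscle and 3.16 in neurons. Scn4a (Nav1.4, the skeletal muscle sodium channel) had 22 UMIs in muscle, 73.1 CPM, against at most 4.91 CPM elsewhere, 14.9-fold (3.66 to 131). Cacng1, a subunit of the Cav1.1 complex, had 17 UMIs and the inward rectifier Kcnj2 22 UMIs. Kcnma1, the large-conductance calcium- and voltage-gated pore, was highest in muscle at 1522 CPM and second in neurons at 846 CPM, 1.80-fold (1.61 to 2.00), and was not called. The muscle calls rest on few UMIs: none of the called genes reached 50 UMIs over the 5 types, and the count fell to 1 when nuclei with a UMI of Th, Dbh or Slc18a2 were left out of the non-neuronal types.

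In endothelium the sodium-activated potassium channel Kcnt2 had 418 CPM against 36.8 in glia and 20.2 in neurons, 11.3-fold (6.81 to 20.4). Kcnc2 (Kv3.2) had 221 CPM against 40.4 in adipocytes, 5.48-fold (4.28 to 7.06), and Kcnq1 68.5 CPM against 10.1 in neurons, 6.76-fold. The 2 endothelial clusters differed. Of 31 genes compared, 9 were at least 2-fold higher in cluster 3 (background 11.5%) and 9 in cluster 6 (background 9.06%), whose leading genes include Gja5, Vwf and Eln. Cluster 6 had 673 CPM of Kcnt2 against 69.5 in cluster 3, and 46 UMIs of Kcnn4, the intermediate-conductance calcium-activated channel, against 1. Kcnn3 and Kcnq1 were also higher in cluster 6. Cluster 3 was higher in Cacna1c, with 56 UMIs against 15, and in Cacna1d and Kcnc2.

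In adipocytes the inward rectifier Kcnj15 had 114 CPM against 14.7 in glia, 7.77-fold (3.52 to 21.4), the background channel Kcnk3 109 CPM against 25.8 in endothelium, 4.21-fold (2.86 to 6.42), and the silent subunit Kcns3 33.6 CPM against 9.78. These genes split between the 2 adipocyte clusters. Kcnk3 was higher in cluster 0, which is led by Ppara, Ppargc1b and Esrrg, at 154 CPM against 43.1 in cluster 5. Kcnj15 was higher in cluster 5, which is led by Lep, Nnat and Slc7a10, at 226 CPM against 37.0. Of 29 genes compared, 3 were at least 2-fold higher in cluster 0 (background 5.28%) and 7 in cluster 5 (background 4.61%), among them Scn7a (238 CPM against 35.4) and Cacna1e (25 UMIs against 2).

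**Figure D4:**
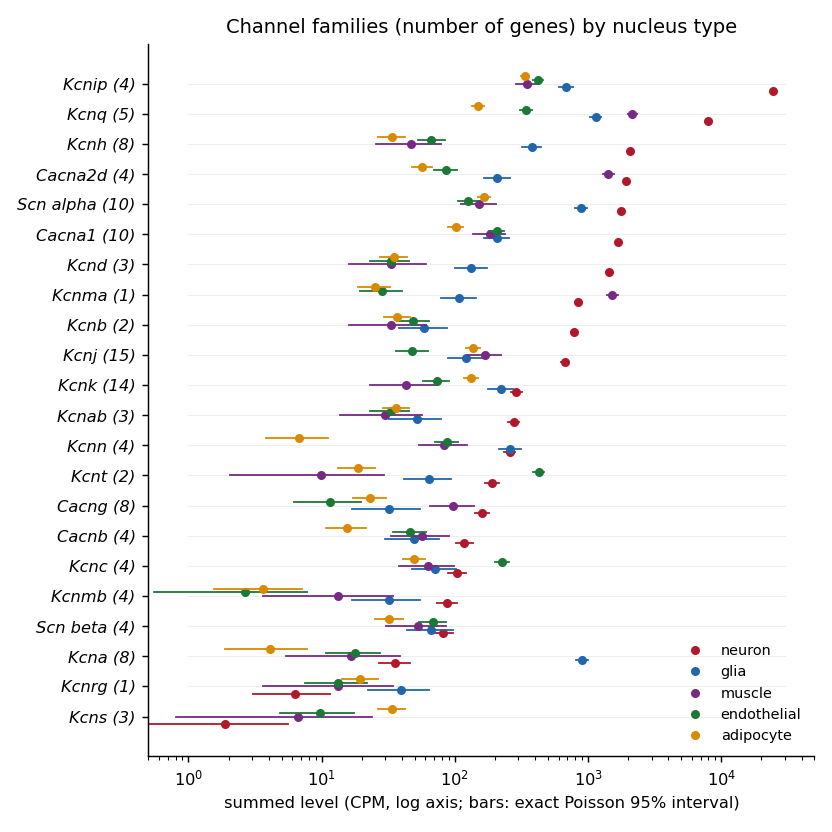
Summed level of the channel families with at least 1 compared gene, Hcn left out (y axis, number of genes in brackets) by nucleus type, in CPM on a log axis (x axis), with exact Poisson 95% intervals. Most families are highest in neurons; the others are Kcna, Kcnrg and, by 260.3 against 257 CPM, Kcnn in glia, Kcnma in muscle, Kcnt and Kcnc in endothelium and Kcns in adipocytes.

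Being called for 1 of the 5 types did not mean being highest in the library. Over all 24 clusters, 32 of the 54 called genes were highest in a cluster of their own type. That count was not made over all called genes, so it cannot be called high or low. A further 11 of the 54 were at least 2-fold higher in a cluster outside their type, with at least 20 UMIs there and an interval above 1. The same rule was met by 13.6% of all 3224 called genes. Cacna1c reached 1778 CPM in mural cells (cluster 17), 8.05-fold (6.79 to 9.53) its level in neurons. Cacna1d reached 1528 CPM in macrophages (cluster 2), 7.57-fold its neuron level, and Cacna1e 753 CPM in B cells (cluster 16), 15.1-fold. Kcnab1, a beta subunit of Kv1 channels, and Cacnb4 were highest in mesothelial cells (cluster 7), at 1386 and 399 CPM. Kcnd2 was also highest in that cluster, under the 2-fold rule, at 1594 CPM, 1.14-fold (1.05 to 1.23) its neuron level. Kcnt2 reached 2078 CPM in fibroblasts (cluster 9), 4.97-fold its endothelial level, and Kcnk13 734 CPM in macrophages, 4.67-fold its glial level. Kcna1 stood at 678 CPM in 27 oligodendrocyte-like nuclei (cluster 21). Kcnip4, Kcnq3, Kcnq5, Kcnh7, Cacna1b and Scn9a were highest in the neuron cluster over all clusters. Their second-highest clusters lay outside the 5 types, some at levels well above those of the other 4 types. Kcnq5 had 2613 CPM in mural cells and Kcnq3 1937 CPM in cluster 21. Kcnh7 had 1382 and Cacna1b 313 CPM in cluster 23, and Kcnip4 had 1605 and Scn9a 173 CPM in cluster 13. Hcn4 and Kcnj8 had too few UMIs in the 5 types to be compared (11 each). The highest level of Hcn4, 378 CPM, was in the unnamed cluster 19, and Kcnj8 was highest in mural cells.

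**Figure D5:**
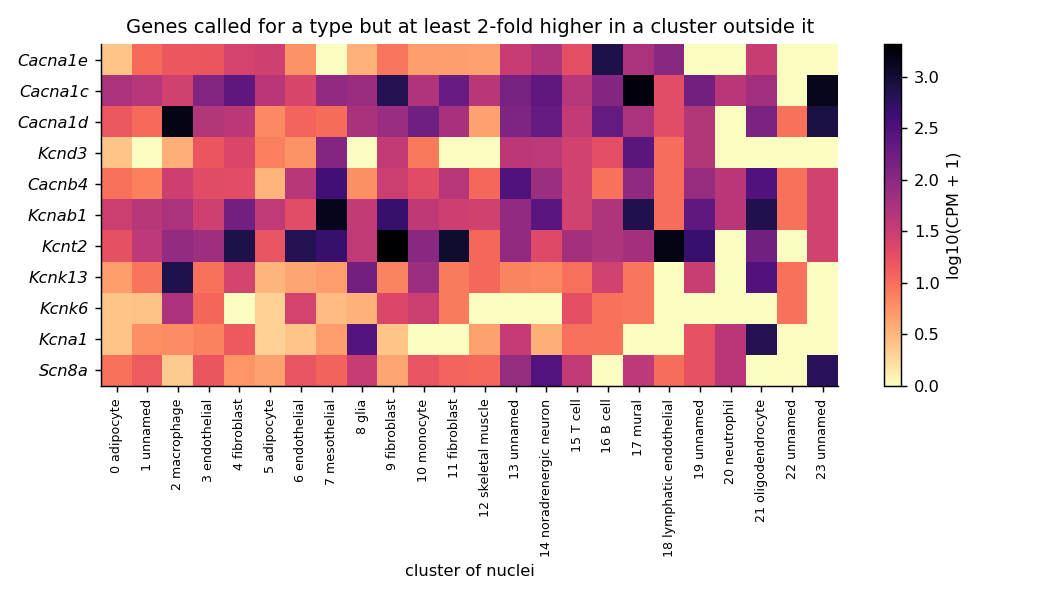
Level of the 11 genes that were called for a type but at least 2-fold higher in a cluster outside it (y axis), over the 24 clusters (x axis, cluster number and name), as log10(CPM + 1) by colour. Dark cells mark Cacna1c in mural cells, Cacna1d in macrophages, Cacna1e in B cells and Kcnt2 in fibroblasts.

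Neuronal marker transcripts were also counted in the non-neuronal nuclei, and whether they came from free RNA or from undetected doublets was not tested. The glial level of the 15 noradrenergic markers, as a percent of their neuron level, had a median of 50.7%, from 5.07% for Syt1 to 139% for Uchl1, and Th and Dbh stood at 50.7% and 73.7%. The same percent over the 33 neuron-called channel genes ran from 0 to 36.2% with a median of 8.76%. The 2-fold threshold of the call itself caps this percent, and the markers passed no such threshold. The channel and marker values are therefore not comparable. Of glial nuclei, 36.0% held a UMI of Th, Dbh or Slc18a2. After thinning every nucleus to 900 UMIs, Kcnip4 was detected in 94.4% of 107 neuron nuclei and in 44.4% of 180 glial, 29.5% of muscle, 30.6% of endothelial and 26.0% of adipocyte nuclei. Whether the Kcnip4 transcripts counted in nuclei of the 4 other types were expressed there was not tested. Kcnh7 was detected in 57.0% of neuron nuclei and 2.78% of glial nuclei, Kcnq3 in 85.0% and 8.89%, and Kcna2 in 1.87% and 21.7%. With the library profile subtracted from each type, 33 of 72 compared genes were called for neurons, against 7.53% of all genes in that setting. The profile, which includes the neuron nuclei, was scaled to 7.88% of UMIs in neurons and 44.6% in glia. It was 29.5% in muscle, 48.7% in endothelium and 10.9% in adipocytes. More was thus taken from the other types, so this setting cannot test whether free RNA bears on the neuron calls.

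Promoters of the genes with the largest ratio in each type and a RefSeq entry are shown, 120 bases before the listed start, to set the sequence beside the pattern (RefSeq, build GRCm38.p6, 5′ to 3′ on the gene's strand). Capitals mark matches on either strand to the GC box GGGCGG, the E-box CAGCTG or the TATA element TATAAA. Kcnh7 is at chr2:63184288-63184407 (minus strand), Kcna2 at chr3:107101447-107101566, Cacna1s at chr1:136052691-136052810, Kcnt2 at chr1:140245598-140245717 and Kcnj15 at chr16:95257438-95257557 (all plus strand).
Kcnh7: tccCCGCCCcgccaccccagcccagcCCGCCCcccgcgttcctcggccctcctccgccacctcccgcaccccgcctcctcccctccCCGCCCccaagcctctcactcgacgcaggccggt
Kcna2: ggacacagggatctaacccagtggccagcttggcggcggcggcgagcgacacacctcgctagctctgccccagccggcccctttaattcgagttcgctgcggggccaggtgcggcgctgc
Cacna1s: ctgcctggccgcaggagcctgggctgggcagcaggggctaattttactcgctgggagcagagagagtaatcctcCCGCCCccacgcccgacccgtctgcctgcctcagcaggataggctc
Kcnt2: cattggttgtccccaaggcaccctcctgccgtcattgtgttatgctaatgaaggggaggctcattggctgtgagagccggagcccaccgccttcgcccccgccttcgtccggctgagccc
Kcnj15: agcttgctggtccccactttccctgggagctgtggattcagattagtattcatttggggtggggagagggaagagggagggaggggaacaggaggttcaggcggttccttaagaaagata

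The Kcnh7 window held 3 GC boxes with 80.0% G and C, and the Cacna1s window 1. The windows of Kcna2, Kcnt2 and Kcnj15 held none of the 3 motifs. Entries were found for 101 of the 138 genes. A gene counted for a motif when the 250 bases before any of its listed starts held it. Genes with more listed starts thus had more chances to match, and the number of starts was not matched. By this count 58 of the 101 (57.4%) had a GC box, against 35.4% of all 27025 genes in the table. The E-box was found in 27 (26.7%) against 14.7%, and the TATA element in 5 (4.95%) against 14.3%. Median G and C content was 59.6% and 52.4%. Among neuron-called genes 15 of 27 had a GC box and 9 of 27 the E-box; among glia-called genes these were 3 of 7 and 3 of 7. A match is a description of the sequence and not a bound site.

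Within the neuron class, sub-clustering at the chosen resolution of 0.5 gave 4 groups of 43, 38, 17 and 11 nuclei, none with the 50 required, so no comparison was made there. At a resolution of 0.3 the class fell into groups of 55 and 54 nuclei with median depths of 10863 and 9617 UMIs. Npy was at 1465 CPM in the first and 164 in the second. The 138 genes summed to 45479 and 44553 CPM. Of 56 genes compared, 4 were at least 2-fold higher in the first group (background 5.01% of 7906 genes) and 8 in the second (3.40%). Cacna1c had 91 UMIs in the first and 258 in the second, 2.73-fold by CPM (2.14 to 3.51). Kcnt1 had 71 and 198 UMIs, 2.68-fold (2.04 to 3.57), and Kcnab1 117 and 279. Cacnb2 had 2 and 20 UMIs, while Hcn2 was higher in the first group, with 21 and 7.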

How the data were processed

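Nuclear RNA of pooled sympathetic ganglia was counted as UMIs. The matrices were deposited as raw, unnormalized UMI counts for each gene in each barcode. Cell Ranger 7.1.0 produced the ganglia matrix, per the file headers. The submitters' processing notes list GRCm39, R 3.6.0 and Seurat 5.1.0 without a role for each. No source used here gives the setting for intronic reads, which decides how gene span bears on nuclear counts.

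Barcodes under 200 genes (1) or over 5% mitochondrial UMIs (196) were removed. Scrublet marked 2 doublets (0.0444%), too few for the caller to have worked, so undetected doublets remain. Counts were scaled to 10000 UMIs and log-transformed. The 2000 most variable genes, the ion channel genes left out, gave 30 components, 15 neighbours and Leiden clusters at resolution 1 (scanpy 1.11.5, leidenalg 0.10.2, Python 3.11.15). A marker counted with a UMI in 5% of nuclei and 2 times the mean of other clusters, and a name needed 3. A neutrophil list and a rule on haemoglobin genes were added after seeing the data. Clusters 1, 13, 19, 22 and 23 stayed unnamed. No barcode was shared with the skin libraries.

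UMIs were summed per type, with exact Poisson intervals for levels, exact conditional binomial intervals for ratios (95%) and a floor of 3 counts for 0. The genes, lists and marker classes were chosen with earlier results of these data known. Named were the 12 neuron-called genes and the 4 genes called for each other type with the largest ratio, the member of each family highest in neurons, a fixed set of well-known channels, the 6 called genes of largest ratio between sub-clusters and up to 3 partners of each list; others are named where a count is 5 or fewer or where a higher cluster was found, after their values were seen. Symbols Kcnd3os, Kcnq1ot1, Kcnmb4os1, Kcnmb4os2 and Kcnab3os were left out. Some genes that the naming rule picks are not reported here.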

Additional observations from a re-analysis of the deposited data

Results flagged for a closer look

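Signals of the 138 ion channel genes appeared outside the comparisons of the 5 nucleus types. In CD45-selected skin cells they summed to 283 CPM in the control library (MC903) and 226 CPM in the RHS library (RHS and MC903). Cacnb3, a calcium channel beta subunit, had 41.5 CPM in skin control, Cacna1g, a T-type calcium channel pore, 40.96 CPM and the background potassium channel Kcnk6 21.1 CPM. Cacna1g had 2261 UMIs in control and 815 in RHS, a ratio of 0.377 (0.348 to 0.409), and 8 UMIs in the whole ganglia library. Each skin group was 1 library and the make-up of its cells was not accounted for, so the ratio compares those libraries and not the treatments.

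In 2 unnamed ganglia clusters with neuronal leading genes the same genes summed to 9094 CPM (cluster 13, 127 nuclei) and 15099 CPM (cluster 23, 14 nuclei). Cluster 13 also held haemoglobin transcripts and stayed unnamed by the haemoglobin rule, which was added after seeing the data. It had 14 noradrenergic markers present, as did the neuron class. The mean log2 ratio of the noradrenergic markers to other clusters was 1.71 in cluster 13 and 1.53 in the neuron class. Kcnip4 stood at 1605 CPM in cluster 13, so the neuron levels above do not cover all nuclei with these markers. Kcnmb2 led in cluster 23 at 2321 CPM.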

How the results depend on the processing

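The number of genes called for neurons ran from 22 of 46 compared, thinned to 900 UMIs (4.78% of all genes there), to 36 of 77 under median-ratio scaling (10.0% of all genes), and the summed neuron level stayed between 5.49-fold and 7.75-fold over the next type. The muscle count moved: 0 genes with at least 50 UMIs, 0 with each nucleus thinned to 900 UMIs, 8 with no minimum and 1 without non-neuron nuclei that held Th, Dbh or Slc18a2. Thinning keeps fewer UMIs of each nucleus and lowered the number of named genes called from 43 to 28. The counts for glia (7 to 12), endothelium (3 or 4) and adipocytes (2 or 3) stayed within 1.5 times. Of the ratios of named genes under the alternatives, 624 kept their side of the call, 19 lost it, 7 gained it and none changed direction among called genes. Median-ratio scaling shifted all levels by 0.35 (log2) in neurons, 0.17 in muscle, -0.14 in glia, -0.24 in endothelium and -0.14 in adipocytes. Adding unnamed clusters to adipocytes or neurons and leaving out the 10 deepest neuron nuclei were chosen after seeing the data. Sub-clusters at resolutions 0.5 and 0.8 held no 2 groups of 50 nuclei, so the comparison planned there, also with at least 50 UMIs, gave no value. No paired analysis was possible because the ganglia library had no partner group and each group was 1 library. Depth kept the 48 genes with 1 to 19 UMIs out of the comparisons, except where no minimum was set.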
